A study of Mus musculus with 18 samples.

Results

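The 44 genes described here code for the machinery of mitosis and chromosome segregation, and are those of a list of gene symbols. Membership goes by symbol and no measured value enters the rule, although the list was drawn up with earlier results of these data known. All 44 were in the table of 22787 mouse genes, and all 44 were tested in every comparison. By role they are 8 cyclins, Cdk1 partners and mitotic kinases, the transcription factor Foxm1, 9 genes of the chromosomal passenger complex, midzone and cytokinesis, 4 of the spindle checkpoint, 3 of mitotic protein destruction, 6 of the centromere and kinetochore, 6 spindle motors and assembly factors, and 7 of condensin and chromosome structure. RNA was profiled by SmartSeq2, a low-input sequencing method, in 18 libraries of 7 groups. Of the groups, 4 were granulocyte-monocyte progenitors (GMPs), the marrow cells that give rise to neutrophils and monocytes: the knockouts Raptor KO and Tsc2 KO and their controls, Raptor fl/fl and Tsc2 fl/fl, with 3 libraries each, from samples of 10000 cells sorted as c-kit+, Sca-1-, CD127-, FcγRII/III+, CD34-low, Ly6C-low and CD135-. The other groups were DR-ER-Hoxb8 cells, an immortalized myeloid progenitor line held immature by estradiol, kept for 3 days in SCF medium without estradiol in the presence of DMSO (the solvent control), rapamycin at 100 nM or SL0101-01 at 10 nM, with 2 libraries each.

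Raptor defines mTORC1, the growth kinase complex that rapamycin inhibits, and Tsc2 belongs to the complex that keeps mTORC1 inactive. SL0101 is known as an inhibitor of the RSK kinases. The labels name no Cre driver, age or shared allele, and do not say whether libraries of a group came from separate animals or cultures, so p-values measure the spread between these libraries, which may be technical. In 1 label field the Tsc2 samples name Raptor, and groups were taken from the sample titles.

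Mitotic genes form a tightly timed program of the cell cycle. Most are silent in G1, are transcribed from late S phase through G2 under the MuvB complex with B-Myb and Foxm1, and their proteins drive chromosome condensation, spindle assembly, attachment of kinetochores, the checkpoint that waits for the last attachment, and cleavage of the cell. Granulocyte-monocyte progenitors divide rapidly, and their descendants stop dividing as they mature into neutrophils. In RNA from a whole population, a smaller share of dividing cells and less mitotic RNA in each cell cannot be told apart.

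The targeted genes were measured first. Tsc2 values were 269, 235 and 241 in Tsc2 fl/fl libraries against 103, 99 and 83 in Tsc2 KO libraries, with no overlap (log2 fold change -1.38 ± 0.18, adjusted p = 0.000169, limma). Rptor, which encodes Raptor, read 88, 78.6 and 86.8 in Raptor fl/fl and 61.5, 58.7 and 69.5 in Raptor KO. All 3 knockout libraries lay below the controls, but the difference did not pass the test (-0.41 ± 0.24, adjusted p = 0.377, limma), and a value summed over a whole gene need not fall when only part of it is deleted. Each value is the number of fragments of a gene, scaled by the size factor of its library, in what are called signal units below. Progenitor libraries held 2.48 to 3.52 M fragments, those of Hoxb8 cells 2.31 to 3.30 M, and the 44 genes were read by 42 fragments or more in every library. Tsc2 fl/fl replicate 2 stood apart from the other libraries of its group in its marker sums, given below. It and Tsc2 KO replicate 2 were the only progenitor libraries with Y-linked transcripts (summed values of 385 and 318, against 0.778 or less in the other progenitor libraries). All 6 Hoxb8 libraries carried such transcripts, with summed values of 388 to 660.

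In these libraries the 44 genes together took between 0.470% and 0.892% of all signal. The share was 0.610%, 0.606% and 0.590% in Raptor fl/fl and 0.483%, 0.470% and 0.498% in Raptor KO. In Tsc2 KO it was 0.789%, 0.855% and 0.858%, above the 0.543%, 0.748% and 0.552% of Tsc2 fl/fl. Raptor KO libraries thus lay below their controls and Tsc2 KO libraries above theirs, and the control that came nearest to the Tsc2 KO level was replicate 2. In Hoxb8 cells the share was 0.887% and 0.864% with DMSO, 0.487% and 0.609% with rapamycin, and 0.892% and 0.864% with SL0101-01. Rapamycin libraries took the lowest shares of the line and did not overlap with either other group.

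**Figure D1:**
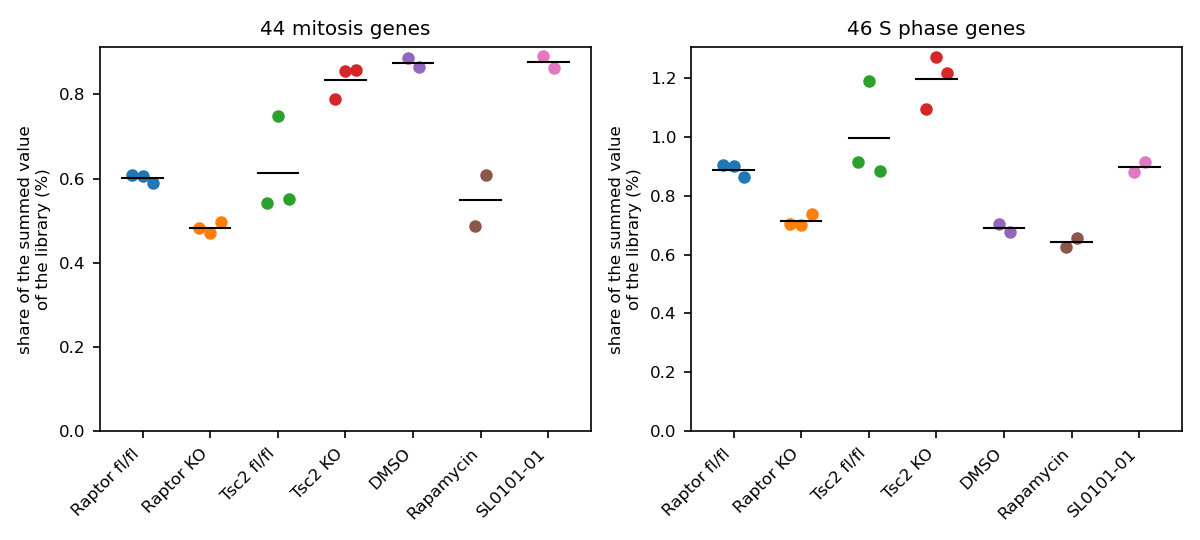
Share of each library's summed value (%, y axis) taken by the 44 mitosis genes (left) and, for comparison, by 46 DNA replication and S phase genes (right), for the 7 groups (x axis). Points are libraries and lines are group means; for the mitosis genes rapamycin libraries (0.487% and 0.609%) lay below DMSO (0.864% and 0.887%).

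**Figure D2:**
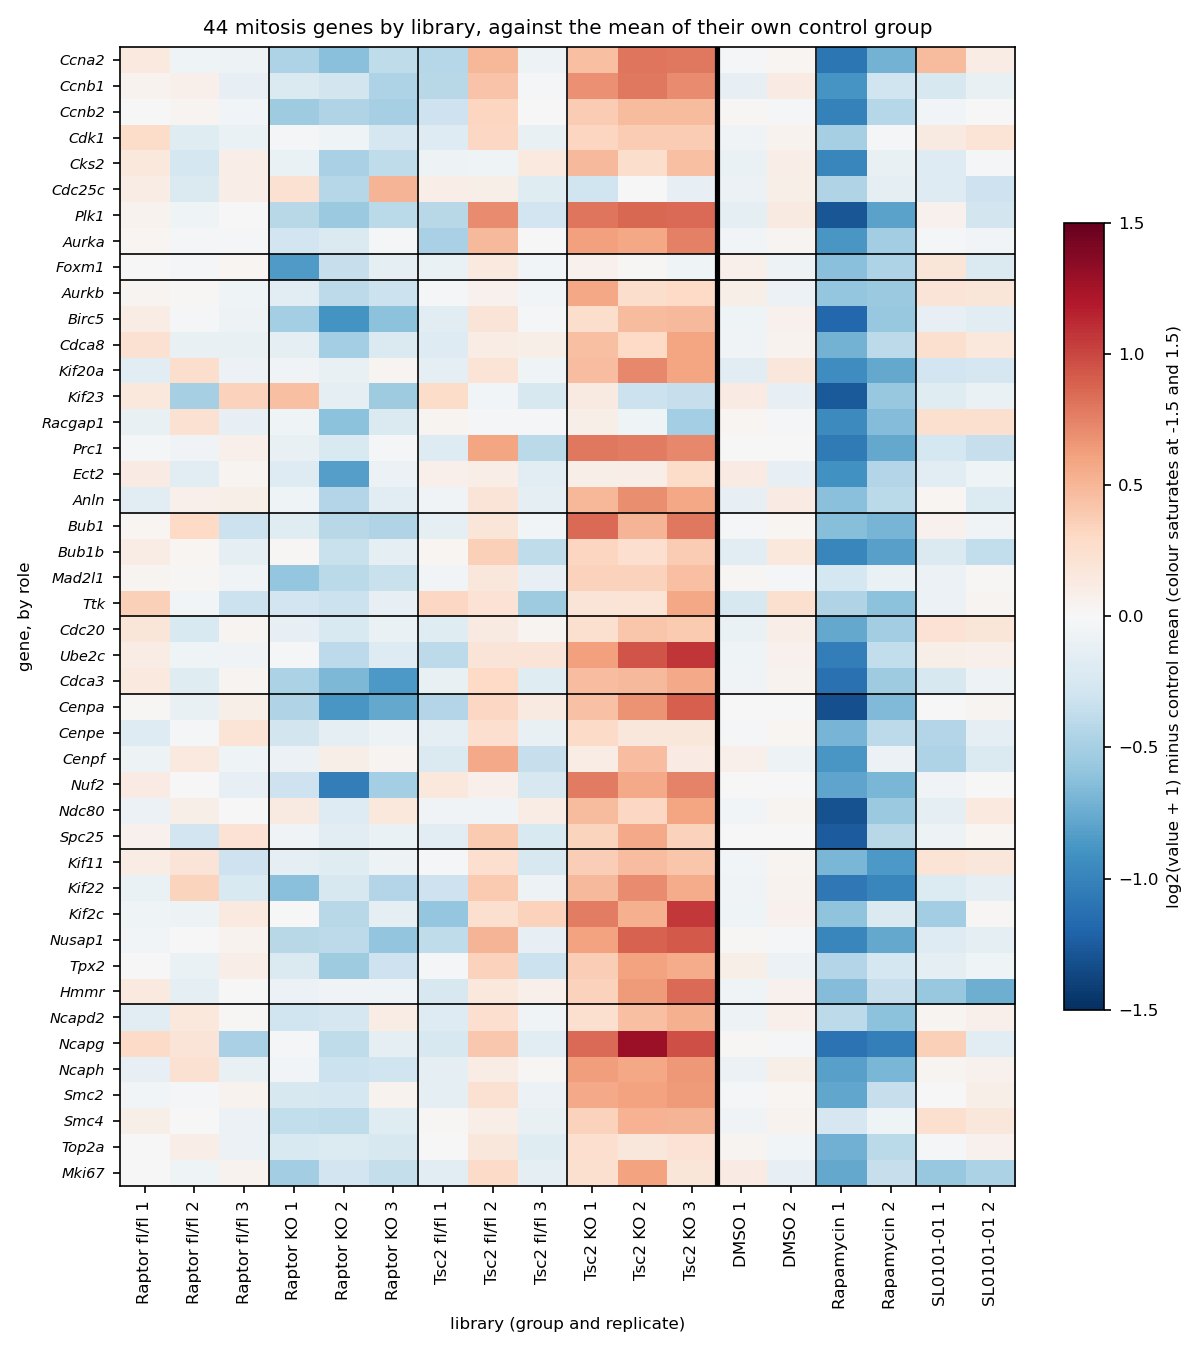
Difference of log2(value + 1) from the mean of the own control group (colour, red higher and blue lower) for the 44 genes (rows, by role) in the 18 libraries (columns). In both rapamycin libraries 0 of 44 genes lay above the DMSO mean, and in Tsc2 fl/fl replicate 2 40 of 44 lay above the mean of its own group.

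Because these genes moved together in several comparisons, their promoters were read from RefSeq (GRCm38.p6), as windows from 250 bases before to 50 bases after the start of the gene, which were at hand for 37 of the 44 genes. Promoters of G2 and M phase genes are known for CCAAT boxes, bound by NF-Y, next to a cell cycle genes homology region (CHR), bound by MuvB. CCAAT was found on either strand in 29 of 37 genes (78.4%), against 37.4% of all 32851 windows of this length. TTTGAA or TTTAAA, the letters searched for the CHR on either strand, were found in 31 of 37 genes (83.8%), against 27.6% of all windows. Both were present in 27 genes (73%), against 10.7% of all windows. Of 100 other mitosis genes with a window, 58% held CCAAT, 47% the CHR letters and 33% both. Of 36 S phase genes with a window, 19.4% held both. The E2F words TTTCCCGC, TTTGGCGC, TTTCGCGC and TTTGCCGC, which are common in promoters of S phase genes, were found in 8.11% of the mitosis genes described here, 15% of the other mitosis genes, 41.7% of the S phase genes and 2.26% of all windows. A match of letters describes the window and does not show a site in use.

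Of 15 genes with a window that were called both in Tsc2 KO and with rapamycin, 5 hold both kinds of match in the 120 bases before the start. Their stretches are given below, followed by that of Nusap1. It was called in both and holds neither, as is also true of Ncaph and Nuf2. Each is written 5′ to 3′ on the strand of its gene in lower case, and capitals mark CCAAT, which reads ATTGG where it lies on the other strand, and TTTGAA or TTTAAA, where TTCAAA is the form of TTTGAA on the other strand.
Ccnb1, chr13:100786487-100786606, minus strand: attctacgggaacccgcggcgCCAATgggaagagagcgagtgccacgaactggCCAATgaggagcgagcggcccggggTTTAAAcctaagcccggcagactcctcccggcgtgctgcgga
Cenpa, chr5:30666766-30666885, plus strand: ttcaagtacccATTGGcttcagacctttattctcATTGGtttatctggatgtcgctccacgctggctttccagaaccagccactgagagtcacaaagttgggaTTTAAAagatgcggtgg
Kif22, chr7:127042421-127042540, minus strand: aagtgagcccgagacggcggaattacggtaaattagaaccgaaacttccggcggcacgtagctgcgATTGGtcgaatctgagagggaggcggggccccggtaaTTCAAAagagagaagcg
Plk1, chr7:122159315-122159434, plus strand: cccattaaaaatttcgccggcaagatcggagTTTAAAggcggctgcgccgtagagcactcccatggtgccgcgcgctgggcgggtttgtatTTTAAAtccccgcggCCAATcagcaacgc
Ube2c, chr2:164769809-164769928, plus strand: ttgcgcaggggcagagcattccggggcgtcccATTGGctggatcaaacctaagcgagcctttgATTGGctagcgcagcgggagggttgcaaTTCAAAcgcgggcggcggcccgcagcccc
Nusap1, chr2:119618178-119618297, plus strand: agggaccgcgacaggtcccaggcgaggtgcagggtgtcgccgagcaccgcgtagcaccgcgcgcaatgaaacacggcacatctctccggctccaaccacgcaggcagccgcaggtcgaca
The CHR letters lay close to the start in Cenpa, Kif22, Plk1 and Ube2c, and CCAAT boxes stood upstream of them in Ccnb1, Cenpa, Kif22 and Ube2c, while in Plk1 the box lay nearer to the start than both CHR matches. Positions were counted over a single window for each of the 37 genes. Of CHR matches 35 of 46 began between 100 bases before and 50 bases after the start, and of CCAAT matches 47 of 70. The medians lay at -16 and -69.5 bases. The 27 genes with both matches and the 10 without both had similar medians with rapamycin (-0.69 and -0.70 on the log2 scale), and in Tsc2 KO the medians were 0.41 and 0.60. This split of the genes was made after their values were known and was not tested.

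**Figure D3:**
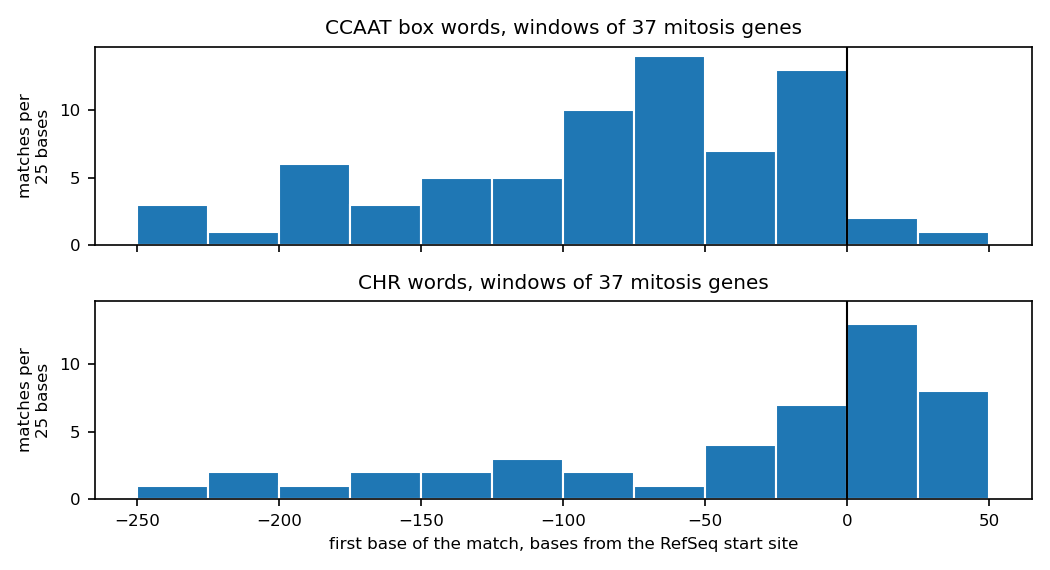
Number of matches per 25 bases (y axis) by distance of the first base of the match from the RefSeq start (x axis, bases). Panels show CCAAT (top, 70 matches) and CHR letters (bottom, 46 matches), with a single window for each of 37 mitosis genes. CCAAT matches were most frequent in the 100 bases before the start and CHR matches around the start itself.

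The first comparison asked how mitotic genes differ in progenitors without Tsc2. Of the 44 genes, 21 were higher in Tsc2 KO than in Tsc2 fl/fl by limma with adjustment over all genes, and none of the others passed in the opposite direction. Across all 13237 genes tested, 5.26% were called higher. The median log2 fold change of the 44 genes was 0.45, against -0.02 over all genes, and 30 of the 44 had all 3 knockout libraries above all 3 controls, against 14.6% of all genes. Fold changes here and below are on the log2(value + 1) scale, given with their standard error, and called means an adjusted p below 0.05.

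Of the 8 cyclins, Cdk1 partners and kinases, 5 rose in Tsc2 KO. Ccnb1, the cyclin that carries Cdk1 into mitosis, read 423, 761 and 561 in Tsc2 fl/fl libraries against 912, 979 and 924 in Tsc2 KO libraries. The groups did not overlap, and replicate 2 was the highest control (0.73 ± 0.16, adjusted p = 0.00665). Plk1, the kinase of mitotic entry and spindle assembly, read 153, 334 and 167 against 359, 373 and 370.4 (0.84 ± 0.21, adjusted p = 0.0151). Its knockout libraries lay within a narrow range, and the highest control came close to it. Ccna2, the cyclin of S phase and G2, read 520.2, 989.8 and 666 against 955, 1223 and 1209.6, with 1 control above 1 knockout library (0.68 ± 0.18, adjusted p = 0.0197). Aurka, the kinase of the spindle poles (0.65 ± 0.20), and Ccnb2, the second B cyclin (0.45 ± 0.14), were also called. Cdk1 itself (0.36, adjusted p = 0.118), its small partner Cks2 (0.40, adjusted p = 0.0607) and its activating phosphatase Cdc25c (-0.14, adjusted p = 0.778) did not pass.

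Foxm1, which activates many genes of this program, read 64.2, 76.1 and 66.8 in Tsc2 fl/fl libraries against 72.3, 69.5 and 65.9 in Tsc2 KO libraries. The groups overlapped (0.01 ± 0.23, adjusted p = 0.994).

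Of the 9 genes of the passenger complex, midzone and cytokinesis, 3 rose. Prc1, which bundles the microtubules of the midzone, read 199, 343 and 170.2 against 391, 391 and 373 (0.76 ± 0.19, adjusted p = 0.0152). Kif20a, the motor that carries the passenger complex to the midzone (0.59 ± 0.17), and Anln, the scaffold of the contractile ring (0.59 ± 0.18), were called as well. The passenger subunit Cdca8, borealin, was the gene just outside the threshold: it read 344, 425 and 420.4 against 539, 487 and 594, without overlap (0.45 ± 0.15, adjusted p = 0.0518). Aurkb, the kinase of that complex, and Birc5, its subunit survivin, lay near it at 0.38 and 0.41 (adjusted p = 0.0573 and 0.0599). The partners that form centralspindlin gave the lowest fold changes of all 44 genes. Kif23 read 148, 119 and 103 against 135, 97.7 and 96.3 (-0.18 ± 0.26, adjusted p = 0.726), and Racgap1 read 284, 272 and 269 against 293, 263 and 192 (-0.16 ± 0.18, adjusted p = 0.617). Both overlapped between groups, and the 95% interval of Racgap1, -0.53 to 0.21, did not reach the fold change measured for Prc1. Ect2, which centralspindlin recruits to start cleavage, was also not called (0.16, adjusted p = 0.674).

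Among the 3 genes of mitotic protein destruction, Ube2c, the ubiquitin-conjugating enzyme of the anaphase-promoting complex, had the smallest adjusted p of the 44 genes. It read 330.3, 497 and 498 in Tsc2 fl/fl libraries against 664, 838 and 913 in Tsc2 KO libraries, 1.84-fold higher with no overlap (0.88 ± 0.16, adjusted p = 0.00238). Cdca3, a trigger of mitotic entry, was called (0.50 ± 0.16), and Cdc20, the activator of the complex, was not (0.35, adjusted p = 0.105). Of the 4 checkpoint genes only the kinase Bub1 was called, with 153, 191 and 164 against 304, 240.0 and 293 (0.71 ± 0.18, adjusted p = 0.0137). The other three, Bub1b, Mad2l1 and Ttk, had log2 fold changes of 0.32, 0.38 and 0.33.

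At the centromere, Cenpa, the histone H3 variant that marks it, read 339.9, 569 and 504 against 625, 736 and 856 (0.67 ± 0.17, adjusted p = 0.0178). Nuf2, a subunit of the Ndc80 complex that holds microtubules, read 179, 168 and 135 against 276, 237 and 267 (0.70 ± 0.19, adjusted p = 0.0194). Both were higher in every knockout library. Its partners Ndc80 (0.46, adjusted p = 0.142) and Spc25 (0.41, adjusted p = 0.172), and the large kinetochore proteins Cenpe and Cenpf (0.21 and 0.23), did not pass.

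Of the 6 spindle genes, 4 rose, and all 6 had knockout libraries wholly above the controls. Nusap1, a microtubule-bundling protein, read 186, 348 and 223 against 372, 451 and 461 (0.80 ± 0.18, adjusted p = 0.00782). Hmmr (0.61 ± 0.17), the Aurka activator Tpx2 (0.51 ± 0.16) and the chromokinesin Kif22 were called. Kif22 was the last gene inside the threshold, with 165, 269 and 195 against 288, 337 and 303 (0.59 ± 0.19, adjusted p = 0.0485). The motor Kif11, which pushes spindle poles apart, and the depolymerase Kif2c were not called (adjusted p = 0.0901 and 0.0546).

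Of the 7 genes of condensin and chromosome structure, 4 rose. Ncapg, a condensin I subunit, had the highest fold change of all 44 genes, with 88.4, 139 and 94.1 in Tsc2 fl/fl libraries against 190.3, 257 and 205 in Tsc2 KO libraries (1.03 ± 0.22, adjusted p = 0.00585). Smc2 and Smc4 are the ATPase pair at the core of both condensins. Smc2 read 293, 375 and 301 against 475, 489 and 500.0 (0.60 ± 0.14, adjusted p = 0.00822). Smc4 read 679.7, 716 and 619 against 853, 965 and 957 (0.46 ± 0.11, adjusted p = 0.0137). Ncaph, the subunit that closes the condensin I ring, read 166, 195 and 184 against 280.4, 271 and 284 (0.62 ± 0.16, adjusted p = 0.0148). All 4 separated the groups. Ncapd2 (0.41, adjusted p = 0.0816), the decatenating enzyme Top2a (0.21, adjusted p = 0.22) and the proliferation marker Mki67 (0.34, adjusted p = 0.116) did not pass.

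Of 129 other mitosis genes measured, 10 rose and 1 fell in Tsc2 KO, with a median of 0.24. The first by adjusted p were the tubulin gene Tubb4b (0.75), the centrosome kinase Nek2 (1.14), the Cenpa loading factor Oip5 (1.10), the MuvB subunit Lin54 (1.37), the condensin II subunit Ncapg2 (0.62) and the kinetochore scaffold Casc5 (0.69). Cenpb, which binds centromeric repeats, was the one that fell (-0.99). Of 46 S phase genes, 9 rose and none fell, with a median of 0.26.

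The composition of the Tsc2 libraries moved with these values. Of 12 erythroid markers 6 rose and none fell in Tsc2 KO, and their summed level was 13769, 27306 and 24696 there, against 3558, 11704 and 6250 in Tsc2 fl/fl. Of 10 GMP markers 3 fell and none rose, with sums of 40676, 8689.5 and 13067 in the knockout libraries, against 78951, 37010 and 83161 in the controls. Markers of B cells (6 of 8), megakaryocytes (5 of 7) and stem cells (5 of 8) fell, and 4 of 10 monocyte and macrophage markers rose. The defining erythroid genes Gata1 and Klf1 were above 0 in every Tsc2 library, and the globin Hba-a1 read 0.0639 in Tsc2 KO replicate 1. The control with the highest erythroid and lowest GMP sum, replicate 2, was also the control in which 40 of the 44 mitosis genes lay above the group mean (median 0.22). The part of this composition in the result was not tested. Without both progenitor libraries that carried Y-linked transcripts, 21 genes were called, 19 of them the same, with a median of 0.55.

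The count depended on the fit and on single libraries. Without an expression trend in the variance only 4 genes passed. In a fit of these 6 libraries alone 6 passed, with 3.89% of all genes called, against 12.4% in the main fit. The count was 6 without Tsc2 fl/fl replicate 1, 9 without replicate 3, 7 without Tsc2 KO replicate 2 and 5 without replicate 3. Without Tsc2 fl/fl replicate 2 it was 31, and the median stayed between 0.42 and 0.57. Over all genes, leaving out 1 library called 601 to 2498. Several genes overlap other expressed genes, and strand-specific counting is not stated: Ccna2 with Exosc9, Aurka with Cstf1, Kif20a with Brd8 and Cdc23, Prc1 with Rccd1, Anln with 9530077C05Rik, Cdc20 with Elovl1, Nusap1 with Oip5 and Ncapg with Lcorl, so part of their values may belong to the neighbour.

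**Figure D4:**
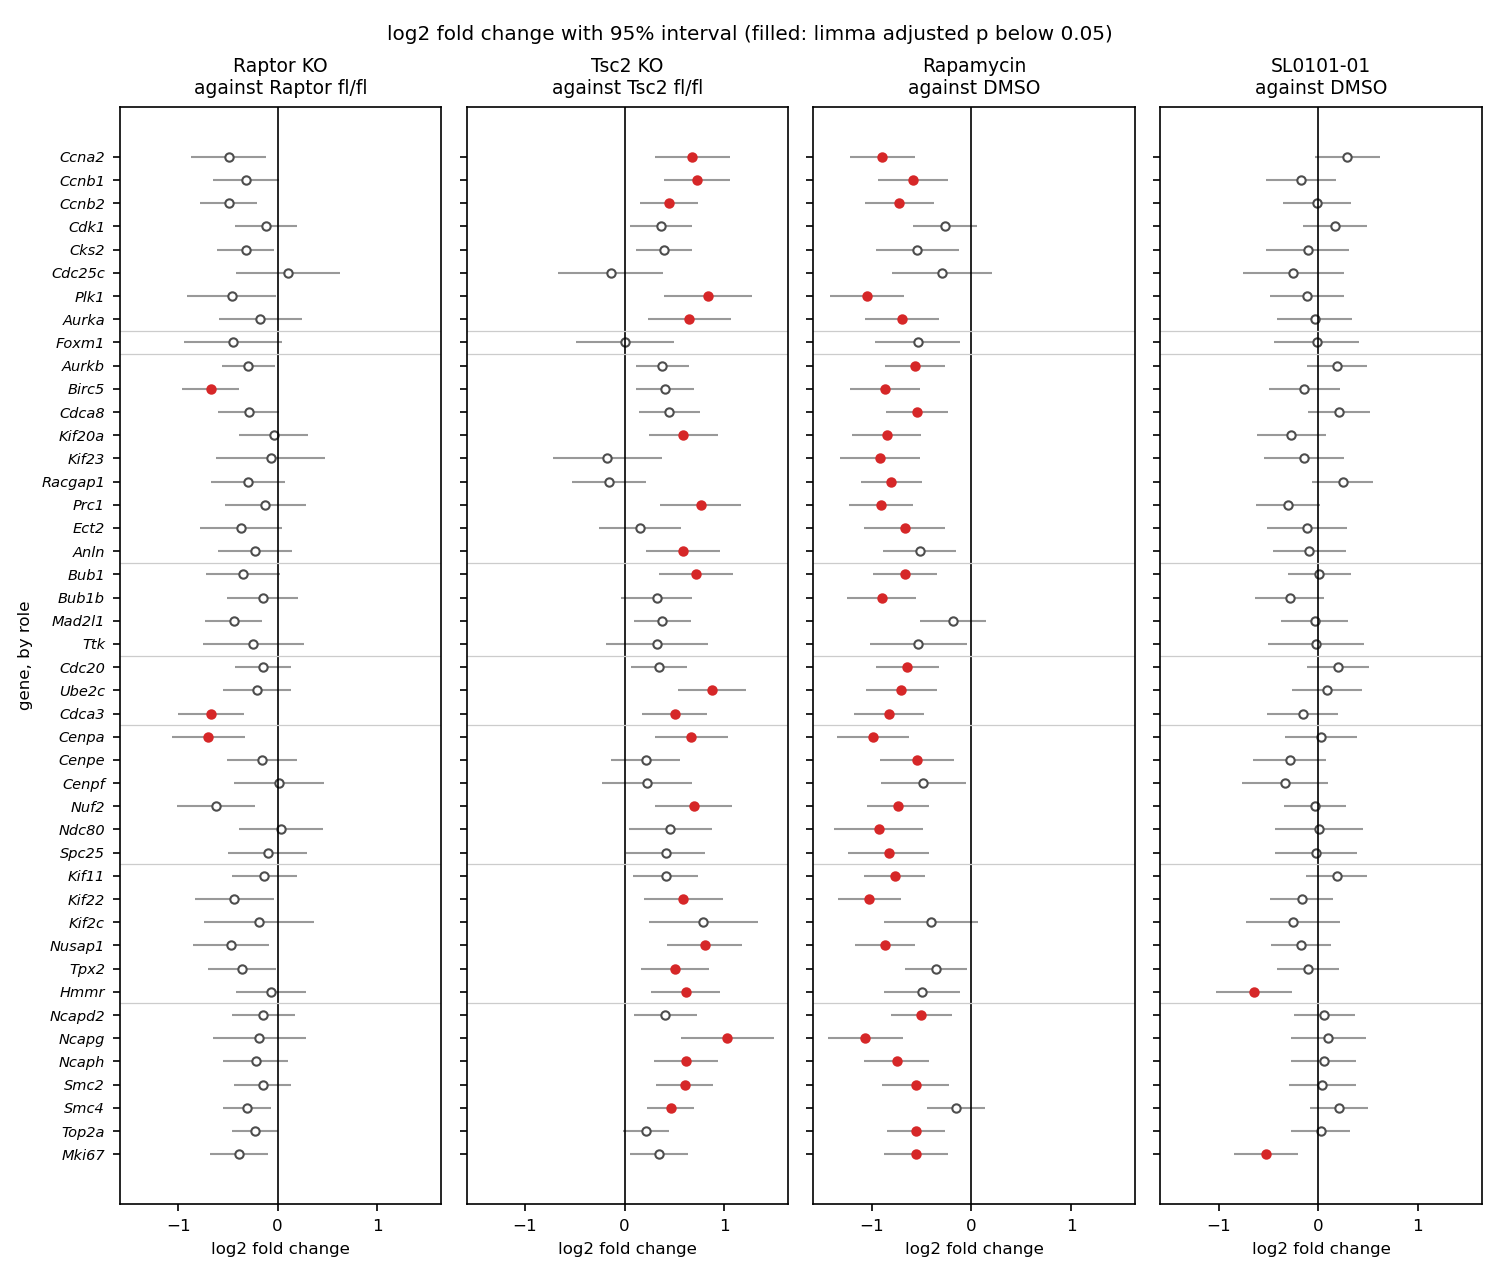
log2 fold change (x axis, points) with its 95% interval (lines) for the 44 genes (rows, by role) in 4 comparisons (panels); filled red points had a limma adjusted p below 0.05. In Tsc2 KO 21 genes were called higher, in Raptor KO 3 lower, with rapamycin 32 lower and with SL0101-01 2 lower. Of all genes tested, 5.26%, 2.42%, 6.35% and 5.79% were called in these directions, in that order.

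The second comparison set progenitors without Raptor beside their controls. Of the 44 genes, 3 were lower in Raptor KO by limma, against 2.42% of 13237 genes called lower, and none was called higher. The median was -0.23, against 0.03 over all genes. In 19 of the 44 genes all 3 knockout libraries lay below all 3 controls, against 13.1% of all genes. In Raptor KO replicates 1, 2 and 3, respectively 40, 43 and 38 of the 44 genes lay below the control mean.

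Birc5 (survivin) was called with 511, 461 and 447 in Raptor fl/fl and 331, 253 and 308 in Raptor KO (-0.67 ± 0.14, adjusted p = 0.011). Cdca3 read 347, 277 and 322 against 226, 196 and 172 (-0.67 ± 0.16, adjusted p = 0.0219). Cenpa read 445, 406 and 468 against 319.8, 239 and 257 (-0.70 ± 0.17, adjusted p = 0.0318) and had the lowest fold change of the 44 genes. For all 3 genes the groups were separate, and the values in Raptor KO were 1.6, 1.59 and 1.62-fold lower.

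Several other genes were lower in every knockout library without passing. Ccnb2, just outside the threshold, read 522, 533 and 503 against 358, 381 and 367 (-0.49 ± 0.14, adjusted p = 0.0517). Nuf2 read 227, 209 and 191 against 168, 101.1 and 146 (-0.62 ± 0.19, adjusted p = 0.064). Mad2l1, the checkpoint protein that holds back Cdc20, read 301, 295 and 282 against 195, 220.0 and 232 (-0.44 ± 0.14, adjusted p = 0.072). These separated from the controls, as did Ccna2 with 749, 648 and 640.2 against 491, 437 and 518 (-0.49 ± 0.18) and Ccnb1 with 626, 635 and 557 against 520.0, 499 and 439 (-0.32 ± 0.16). Plk1 read 206, 191 and 200.4 against 149, 135 and 149 (-0.46 ± 0.21), Nusap1 312, 319 and 332 against 239.8, 244 and 212 (-0.47 ± 0.18), and Smc4 752, 711 and 669 against 549, 544 and 627 (-0.31 ± 0.11). Ube2c, the gene with the smallest adjusted p in Tsc2 KO, overlapped here, with 543, 483 and 487 against 496, 383 and 441 (-0.20 ± 0.16, adjusted p = 0.546). At the other end Cdc25c read 62, 49 and 61.7 against 67.2, 42.4 and 81.7 and had the highest fold change (0.10 ± 0.25, adjusted p = 0.872). Foxm1 was at -0.45, adjusted p = 0.314. By role, the calls came from the passenger complex (1 of 9), protein destruction (1 of 3) and the centromere and kinetochore (1 of 6).

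Of the 129 other mitosis genes, 3 fell and 1 rose. In either direction 3.1% of them were called, which did not exceed the 3.94% of all genes. Those that fell were Spc24, the partner of Spc25 (-0.72), Tubb4b (-0.59) and the centromere gene Cenpw (-0.87), and the cohesin subunit Stag1 rose (0.61). Of 46 S phase genes, 8 fell and none rose (median -0.33), among them Gmnn, Lig1 and Rfc4 at -0.77, -0.82 and -0.77. Of 12 erythroid markers 4 fell and none rose, with sums of 4995, 4547 and 4946 in Raptor fl/fl and 2629, 2266 and 2831 in Raptor KO. Markers of B cells (7 of 8) and megakaryocytes (3 of 7) fell too, while 1 of 10 GMP markers and 1 of 8 stem cell markers rose and none fell. Of 8 late neutrophil markers 2 were called lower and none higher (median -2.73). Their sums were 678, 647 and 1873 in Raptor fl/fl and 378, 487 and 466 in Raptor KO. Of the 8, 3 had positive fold changes. Lcn2 was higher in every knockout library without being called, with 77.9, 54.5 and 141 against 311, 256 and 329. Of 10 monocyte and macrophage markers 2 were called higher and none lower, with sums of 376, 411 and 383 against 599.9, 1166 and 1049.6. By sign 7 of the 10 were higher and 3 lower. Gpnmb read 0, 1.56 and 4.06 against 164, 580 and 408, a large part of these sums. Ly6c2 was lower without overlap, with 168, 150 and 179 against 60.1, 58 and 70.5, but was not called. All 12 erythroid markers were above 0 in every library of this line, and the part of these cells in the result was not tested. The 3 calls ended without an expression trend (0 genes) and without Raptor fl/fl replicate 1 or Raptor KO replicate 2 (0 each). Only 1 gene passed without Raptor fl/fl replicate 3 or Raptor KO replicate 3. A fit of these 6 libraries alone called 9, with 10% of all genes called, against 3.94% in the main fit.

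The difference between both knockouts was tested as an interaction, the Tsc2 effect minus the Raptor effect. Of the 44 genes, 24 passed, all with a higher Tsc2 effect, against 6.44% of 13237 genes in that direction. The median difference was 0.74 on the log2 scale, against -0.08 over all genes. Cenpa had the largest difference (1.37 ± 0.25, adjusted p = 0.00264), followed by Nuf2 (1.32 ± 0.26, adjusted p = 0.00448) and Plk1 (1.30 ± 0.30, adjusted p = 0.00985). Birc5 (1.08 ± 0.20), Cdca3 (1.18 ± 0.22), Nusap1 (1.27 ± 0.26), Ccna2 (1.17 ± 0.25), Ube2c (1.08 ± 0.23) and Ccnb1 (1.05 ± 0.23) also exceeded a log2 difference of 1, which is a factor of 2. So did Ncapg (1.22), Bub1 (1.07) and Kif22 (1.02). Ccnb2 (0.94 ± 0.20), Smc4 (0.77 ± 0.16) and Mad2l1 (0.82 ± 0.19) passed too.

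Every role with more than 1 gene gave at least 2 calls in this test: 5 of 8 cyclins and kinases, 5 of 9 passenger and cytokinesis genes, 2 of 4 checkpoint genes, 2 of 3 destruction genes, 2 of 6 kinetochore genes, 3 of 6 spindle genes and 5 of 7 condensin and chromosome genes. Prc1 was the last gene inside the threshold (0.89 ± 0.27, adjusted p = 0.041) and Aurka the first outside (0.82 ± 0.28, adjusted p = 0.0611). Cdc25c had the lowest difference (-0.24 ± 0.35, adjusted p = 0.706), with Tsc2 values of 88.4, 88 and 72.4 in fl/fl and 67, 83.2 and 75.6 in KO. Of the 129 other mitosis genes 18 passed and of 46 S phase genes 21, all with a higher Tsc2 effect. Among the former the smallest adjusted p belonged to Tubb4b (1.34), Spc24 (1.07), Ncapg2 (1.06), the kinetochore gene Cenph (1.17), Gtse1 (1.06) and the centriole kinase Plk4 (1.36). Erythroid sums fell in one knockout and rose in the other, as given above. Without an expression trend 7 genes passed, and leaving out each library in turn gave 16 to 31, with 31 without Tsc2 fl/fl replicate 2 and 25 without both libraries that carried Y-linked transcripts.

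The fl/fl groups of both lines were set against each other as a check on the controls. By limma 0 of the 44 genes passed, with 4 at an unadjusted p below 0.05 and 0 by limma with voom weights on recovered fragments, against 0.604% of all genes called in either direction. The median was -0.10. The lowest fold change was that of Ncapg, with 197, 185 and 115 in Raptor fl/fl and 88.4, 139 and 94.1 in Tsc2 fl/fl (-0.62 ± 0.22, adjusted p = 0.211), and the highest that of Cdc25c, with 62, 49 and 61.7 against 88.4, 88 and 72.4 (0.52 ± 0.25, adjusted p = 0.377). Cdc25c did not overlap between the groups, and Ncapg did.

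In Hoxb8 cells the question was how inhibitors of mTORC1 and RSK alter the genes during differentiation. With rapamycin 32 of the 44 genes fell and none rose by limma, against 6.35% of 11804 genes called lower. All 44 fold changes were negative, and the median was -0.67, against -0.01 over all genes. In 43 of the 44 genes both rapamycin libraries lay below both DMSO libraries, against 27% of all genes. Rapamycin replicate 1 lay further below the DMSO mean (median -0.84) than replicate 2 (-0.52).

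Kif22, the chromokinesin that pushes chromosome arms to the spindle equator, had the smallest adjusted p. It read 402 and 432 with DMSO and 198 and 211 with rapamycin, 2.04-fold lower (-1.03 ± 0.15, adjusted p = 7.75e-05). Nusap1 read 683 and 668 against 344 and 398 (-0.87 ± 0.15, adjusted p = 0.000273). Kif11, the motor of spindle pole separation, read 482 and 508 against 307 and 272 (-0.77 ± 0.15, adjusted p = 0.001). In these spindle genes the rapamycin libraries were near each other. Hmmr (-0.50, adjusted p = 0.0869), Tpx2 (-0.36, adjusted p = 0.142) and Kif2c (-0.41, adjusted p = 0.281) did not pass, so 3 of 6 spindle genes were called.

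Of the 9 passenger, midzone and cytokinesis genes 8 fell. Prc1 read 491 and 488 with DMSO and 235 and 288 with rapamycin (-0.91 ± 0.15, adjusted p = 0.000321). Racgap1 read 728 and 697 against 366 and 454 (-0.81 ± 0.15, adjusted p = 0.000681), and its centralspindlin partner Kif23 fell as well (-0.92 ± 0.19). Both centralspindlin genes, which gave the lowest fold changes in Tsc2 KO, were thus called here. Birc5 read 614 and 673 against 284 and 434 (-0.87 ± 0.17, adjusted p = 0.00132), and Kif20a read 293 and 369 against 171 and 193 (-0.85 ± 0.17, adjusted p = 0.00136). Of these, Birc5 showed the wider gap between the rapamycin libraries. Aurkb, Cdca8 and Ect2 were called at -0.57, -0.55 and -0.67. Anln, the first gene outside the threshold, read 223 and 263 against 156 and 183, also without overlap (-0.52 ± 0.18, adjusted p = 0.059).

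Of the 8 cyclins, Cdk1 partners and kinases 5 fell. Plk1 read 406 and 491 with DMSO and 182 and 255 with rapamycin, 2.06-fold lower (-1.05 ± 0.18, adjusted p = 0.00034). Ccna2 read 1049 and 1096 against 507 and 655 (-0.90 ± 0.16, adjusted p = 0.000416). Ccnb2 (-0.72 ± 0.17), Aurka (-0.69 ± 0.18) and Ccnb1 (-0.59 ± 0.17) were also called. Cdk1, whose partner cyclins fell, was the one gene of the 44 whose groups overlapped, with 772 and 827 against 565 and 783 (-0.26 ± 0.16, adjusted p = 0.316). Cks2 (-0.55, adjusted p = 0.0848), Cdc25c (-0.30, adjusted p = 0.497) and Foxm1 (-0.54, adjusted p = 0.0977) did not pass.

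Of the 6 centromere and kinetochore genes 5 fell, all but Cenpf (-0.48, adjusted p = 0.144). Cenpa read 629.7 and 631 with DMSO and 252 and 398 with rapamycin, 1.99-fold lower (-0.99 ± 0.17, adjusted p = 0.000416). The Ndc80 complex subunits Nuf2, Ndc80 and Spc25 fell by 0.74, 0.93 and 0.83 on the log2 scale. Cenpe, the motor that brings chromosomes to the equator, was the last gene inside the threshold, with 254 and 262 against 159 and 196 (-0.55 ± 0.18, adjusted p = 0.0476). In the checkpoint Bub1b, which with Mad2l1 restrains Cdc20, read 317 and 397 against 179 and 200.4 (-0.90 ± 0.17, adjusted p = 0.000771) and Bub1 fell as well (-0.67 ± 0.15). Mad2l1 was near its DMSO level, with 275 and 266 against 225 and 252 (-0.19 ± 0.16, adjusted p = 0.53). All 3 destruction genes fell: Cdca3 (-0.83 ± 0.17), Ube2c (-0.71 ± 0.17) and Cdc20 (-0.64 ± 0.15).

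Of the 7 condensin and chromosome genes 6 fell. Ncapg had the lowest fold change of all 44 genes, with 283 and 276 with DMSO and 129 and 137 with rapamycin (-1.07 ± 0.18, adjusted p = 0.000317). The other condensin I subunits Ncaph (-0.75 ± 0.16) and Ncapd2 (-0.50 ± 0.15), as well as Smc2 (-0.56 ± 0.16), Top2a (-0.56 ± 0.14) and Mki67 (-0.56 ± 0.16), were called. Smc4, which pairs with Smc2, had the highest fold change of the 44 genes and was not called, with 766 and 822 against 667 and 760.4 (-0.16 ± 0.14, adjusted p = 0.549). Its interval was -0.45 to 0.14, and that of Smc2 was -0.90 to -0.22.

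Of the 129 other mitosis genes 29 fell and none rose with rapamycin (median -0.31). The first were Cdc25b, the phosphatase that starts Cdk1 activation (-1.20), Depdc1a (-1.48), Depdc1b (-1.32), the spindle protein Tacc3 (-0.75), the anaphase-promoting complex subunit Cdc23 (-0.74) and Plk4 (-0.71). By contrast 1 of 46 S phase genes fell and none rose (median -0.09), the ribonucleotide reductase subunit Rrm2 (-0.58). A test of the difference between the lists was not made.

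Markers of maturation also differed with rapamycin. Late neutrophil and GMP markers shifted in the same directions with SL0101-01, as given below, where the median of the 44 genes was -0.03. Of 8 late neutrophil markers 3 fell and none rose with rapamycin, with sums of 114964 and 159559 with DMSO and 62770 and 96623 with rapamycin. Of 10 GMP markers 6 rose and none fell, with sums of 14306 and 15682 against 61696 and 60814. Of 5 monocyte and macrophage markers tested 3 fell and none rose, and the sums of all 10 were 2264 and 3008.5 against 2118 and 2195. The defining erythroid genes Gata1 and Klf1 were at or near 0 in these cells. The part of differentiation state in the result was not tested. Without an expression trend 0 genes passed limma, with 33 at an unadjusted p below 0.05. Leaving out 1 library leaves its group with a single library, and fewer of all genes were then called each time. Calls among the 44 genes also depended on the library left out. Without DMSO replicates 1 and 2 in turn, the median of the 44 genes was -0.73 and -0.65. Without Rapamycin replicates 1 and 2 in turn, it was -0.52 and -0.84.

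**Figure D5:**
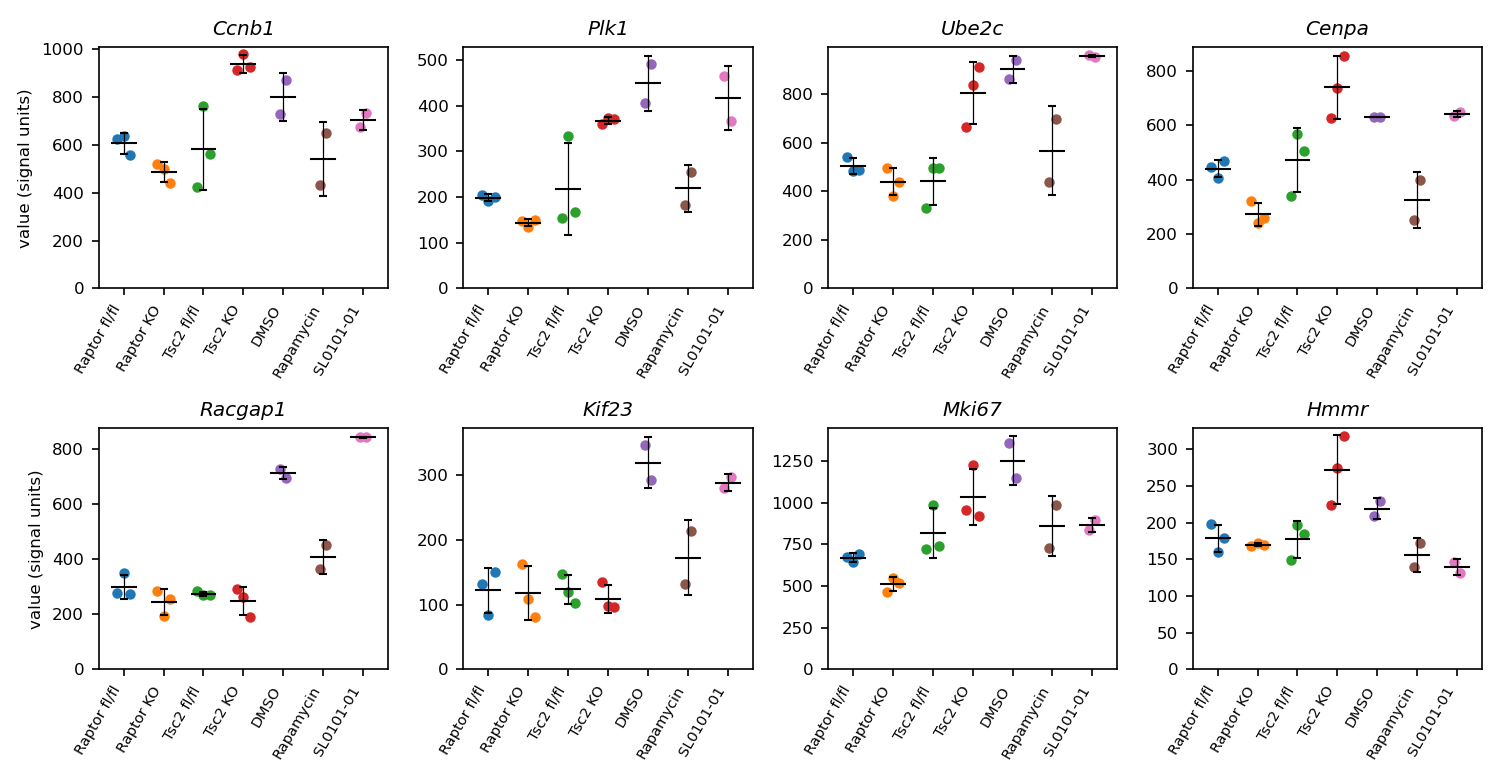
Values in signal units (y axis) of 8 genes (panels) in the 7 groups (x axis); points are libraries, long lines group means and short lines 1 SD. Rapamycin libraries lay below DMSO for all 8 genes, while Racgap1 and Kif23 in Tsc2 KO overlapped with Tsc2 fl/fl, and Mki67 and Hmmr were also below DMSO with SL0101-01.

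With SL0101-01, set against the same DMSO libraries, 2 of the 44 genes (4.55%) fell and none rose by limma. Of all genes 5.79% were called lower and 10.9% in either direction, so the share of the 44 did not exceed that of all genes. The median of the 44 genes was -0.03. Hmmr, a spindle and hyaluronan-binding protein, read 209 and 229 with DMSO and 147 and 132 with SL0101-01 (-0.65 ± 0.18, adjusted p = 0.0249). Mki67, the coat protein of mitotic chromosomes and a common marker of proliferating cells, read 1357 and 1147 against 838 and 895 (-0.53 ± 0.16, adjusted p = 0.0313). Both were lower in each SL0101-01 library. Prc1, the first gene outside the threshold, read 491 and 488 against 407 and 383 (-0.31 ± 0.15, adjusted p = 0.227), and Ccna2 had the highest fold change, with 1049 and 1096 against 1486 and 1158 (0.29 ± 0.16, adjusted p = 0.268). Cenpa was close to equal in both, with 629.7 and 631 against 634 and 649 and a 95% interval of -0.33 to 0.38. Of the 42 genes that did not pass, the intervals still allow changes of some size, for example -0.48 to 0.26 for Plk1.

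In the same libraries 10 of 46 S phase genes rose and none fell (median 0.30), among them the replicative helicase subunits Mcm2 (0.87) and Mcm6 (0.76) and the licensing factor Cdt1 (0.70). Of the 129 other mitosis genes 1 rose, the Cdk1-inhibiting kinase Pkmyt1 (0.75). In the same list 3 fell, Psrc1 (-2.03), the cohesin subunit Rad21 (-0.57) and the cohesin loader Nipbl (-0.48). In either direction 3.1% of the list were called, which did not exceed the 10.9% of all genes. Of 8 late neutrophil markers 5 fell, with sums of 54067 and 81425 against 114964 and 159559 with DMSO, and of 10 GMP markers 5 rose, with sums of 27339 and 35131. Of 5 monocyte and macrophage markers tested 4 fell and none rose, and the sums of all 10 were 1542 and 1897. The part of these markers in the result was not tested. Neither call held when any 1 of the 4 libraries was left out (0 genes each) or without an expression trend (0 genes).

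Set directly against SL0101-01, rapamycin gave 28 lower genes of 44 and none higher by limma, against 4.44% of all genes called lower. The median was -0.63, and 37 genes did not overlap, all lower with rapamycin, against 25.1% of all genes. The doses differed, at 100 nM for rapamycin and 10 nM for SL0101-01, and this comparison shares its rapamycin libraries with the one above. Ccna2 had the smallest adjusted p (-1.19 ± 0.16, adjusted p = 0.000103), with the SL0101-01 values given above. Racgap1 read 845 and 843 with SL0101-01 (-1.05 ± 0.15, adjusted p = 0.000171), Kif11 570.2 and 555 (-0.96 ± 0.15, adjusted p = 0.000419) and Ncapg 358 and 251 (-1.17 ± 0.18, adjusted p = 0.000448). All of these exceeded both rapamycin libraries, and Ccna2, Racgap1 and Kif11 exceeded DMSO too. Cenpa (-1.02 ± 0.17), Kif22 (-0.86 ± 0.15), Plk1 (-0.94 ± 0.18), Nusap1 (-0.70 ± 0.15) and Ncaph (-0.80 ± 0.16) followed. Cdc20 read 569 and 554 (-0.84 ± 0.15), Aurkb 604 and 601 (-0.76 ± 0.15) and Cdca8 716 and 677 (-0.75 ± 0.15).

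The genes that fell with SL0101-01 did not pass between the inhibitors: Mki67 at -0.03 ± 0.16 and Hmmr, the highest of the 44, at 0.15 ± 0.18, with intervals of -0.35 to 0.29 and -0.23 to 0.54. Kif20a was the last gene inside the threshold, with 171 and 193 with rapamycin and 269 and 276 with SL0101-01 (-0.58 ± 0.17, adjusted p = 0.0334), and Ect2 the first outside, with 102 and 141 and 171 and 183 (-0.56 ± 0.20, adjusted p = 0.0789). Of the 129 other mitosis genes 29 were lower with rapamycin and 1 higher, led by Tacc3 (-1.02), Plk4 (-1.14), Nek2 (-1.15), the passenger subunit Incenp (-0.76), Spc24 (-0.99) and Anapc5 (-0.67), and of 46 S phase genes 12 were lower and none higher. Of the marker lists, 6 of 10 GMP, 4 of 8 late neutrophil and 2 of 5 tested monocyte and macrophage markers were higher with rapamycin than with SL0101-01, and their part in the result was not tested. No gene of the 44 passed without an expression trend (28 at an unadjusted p below 0.05). Leaving out 1 library leaves its group with a single library, and fewer of all genes were then called each time. Calls among the 44 genes also depended on the library left out, and the median of the 44 lay between -0.78 and -0.45.

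The last comparison placed day 3 Hoxb8 cells with DMSO beside the 6 fl/fl progenitor libraries. Cell source, culture, sort, Hoxb8 and Y-linked transcripts cannot be told apart here, so it describes levels. Both DMSO libraries carried Y-linked transcripts (summed values of 524 and 557), and of the fl/fl libraries only Tsc2 fl/fl replicate 2 did (385). Of the 44 genes 38 were higher in DMSO and 1 lower by limma, against 22.6% and 29.5% of 13740 genes, and the median was 0.75, against -0.15 over all genes. All 9 passenger, midzone and cytokinesis genes, all 6 kinetochore genes and all 3 destruction genes were higher.

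Racgap1 read 269 to 352 (median 276) in the fl/fl libraries, below the DMSO values given above (1.31 ± 0.16, adjusted p = 4.19e-07). Spc25, of the Ndc80 complex, had the highest fold change, with 104 to 193 (median 148) in fl/fl and 385 and 383 with DMSO (1.43 ± 0.19, adjusted p = 1.8e-06). Its partner Ndc80 read 67.8 to 87.5 (median 77.5) against 199.9 and 212 (1.42 ± 0.19, adjusted p = 1.75e-06), and Nuf2 read 135 to 227 (median 185) against 422 and 427 (1.21 ± 0.16, adjusted p = 1.46e-06). None of these overlapped. Spc24, the other subunit of the complex and not among the 44 genes, was not called and overlapped, with 263 to 362 (median 329.7) against 228 and 286 (-0.33 ± 0.17, adjusted p = 0.105). Nusap1 read 186 to 348 (median 316) in fl/fl (1.27 ± 0.16), Kif20a 138 to 185 (median 148) (1.07 ± 0.15), Prc1 170.2 to 343 (median 195) (1.21 ± 0.18) and Anln 103 to 136 (median 122) (1.00 ± 0.16). Ncaph read 166 to 212 (median 176) (0.89 ± 0.14), Kif11 213 to 337 (median 282) (0.86 ± 0.14), Bub1 153 to 247 (median 177) against 356 and 370.1 (0.98 ± 0.16) and Cdca3 251 to 352 (median 299.6) against 547 and 590.1 (0.92 ± 0.16). All were above every fl/fl library with DMSO.

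Cks2, the small Cdk1-binding protein, was the one gene that was lower, with 756 to 1095 (median 851) in fl/fl and 542 and 622 with DMSO (-0.61 ± 0.17, adjusted p = 0.00444). Ect2 was the last gene inside the threshold, with 114 to 158 (median 136) against 209 and 175 (0.47 ± 0.19, adjusted p = 0.0399), and Hmmr the first outside, with 149 to 198 (median 182) against 209 and 229 (0.30 ± 0.16, adjusted p = 0.117). Smc4, Cdc25c, Ttk and Mad2l1 were not called either (0.20, 0.18, 0.07 and -0.03). Of the 129 other mitosis genes 58 were higher and 18 lower, the first by adjusted p being Rhoa (1.14), Mis12 (1.45), Cdkn3 (1.95), E2f4 (-1.78), Tacc3 (0.94) and Ccnf (1.33). Of 46 S phase genes 2 were higher and 23 lower (median -0.42), so that the lists for S phase and for mitosis had medians of opposite sign. Quantile normalization moved the median of all genes to -0.03 and that of the 44 mitosis genes to 0.50, with 26 genes called higher and 1 lower. Without Tsc2 fl/fl replicate 2 the counts were 38 and 1. Set on the same scale, the medians of the 44 genes against the 6 fl/fl libraries were 0.79 and 0.68 for DMSO, 0.65 and 0.73 for SL0101-01, and -0.09 and 0.19 for rapamycin.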

How the data were processed

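RNA of 12 progenitor and 6 Hoxb8 libraries was sequenced by SmartSeq2. The deposited signal values are fragment numbers of each gene over the size factor of the library, made by the authors with BWA, TopHat2 2.0.10, Cufflinks 2.2.1 and Cuffnorm, per the submitters' processing notes. No source used here names the genome build. Of the non-zero values, 98.8% to 99.0% per library were whole multiples of 1 step (tolerance 0.01), from which fragments were recovered. The 44 genes and all gene lists were chosen with earlier results of these data known.

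Log2(value + 1) was fitted in limma 3.58.1 (R 4.3.3) with group means, an expression trend and robust estimation: 12 progenitor libraries together, 6 Hoxb8 libraries together, and all 18 for DMSO against fl/fl. Genes needed a value of 1 in at least 3 libraries (2 in Hoxb8 cells). P-values of 8 comparisons were adjusted by Benjamini-Hochberg over all genes tested, with a threshold of 0.05. All 44 genes passed this filter, and 0 table columns were left unused. Values per library are given for the 12 genes with the smallest adjusted p among those called, the extremes and the genes nearest the threshold; other listed mitosis genes are named for up to 6 per comparison. Alternatives covered the pseudocount (0.5 and 5), the filter, the scaling, the variance model, the libraries in the fit, a replicate block, voom weights and leaving out each library. The labels do not say that replicate numbers mark shared animals, litters or days, so no pairing was used.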

Additional observations from a re-analysis of the deposited data

Results flagged for a closer look

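For 24 of the 44 genes the difference between the effects of both knockouts passed the interaction test in limma (Tsc2 effect minus Raptor effect, log2 scale, adjusted p below 0.05), and each was higher in the Tsc2 line. Among cyclins and kinases it was 1.17 for Ccna2, 1.05 for Ccnb1, 0.94 for Ccnb2, 0.72 for Cks2 and 1.30 for Plk1. Among passenger and cytokinesis genes it was 0.67 for Aurkb, 1.08 for Birc5, 0.74 for Cdca8, 0.89 for Prc1 and 0.82 for Anln. It was 1.07 for Bub1 and 0.82 for Mad2l1 in the checkpoint, 1.08 for Ube2c and 1.18 for Cdca3 in protein destruction, and 1.37 for Cenpa and 1.32 for Nuf2 at the centromere and kinetochore. Spindle genes gave 1.02 for Kif22, 1.27 for Nusap1 and 0.865 for Tpx2. Condensin and chromosome genes gave 1.22 for Ncapg, 0.84 for Ncaph, 0.75 for Smc2, 0.77 for Smc4 and 0.73 for Mki67. Of all genes tested 6.44% passed in this direction, as did 11 of 12 erythroid markers. The part of cell composition in these differences was not tested.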

How the results depend on the processing

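No gene named as called changed sign under any of the alternatives run. Over all genes named as called and all alternatives, 37 values kept and 17 lost the call in Raptor KO, 269 and 130 in Tsc2 KO, 482 and 94 in the interaction, 389 and 123 with rapamycin, 19 and 13 with SL0101-01, 333 and 115 between the inhibitors, and 686 and 55 for DMSO against fl/fl progenitors. The counts of called mitosis genes moved with the variance model, the scaling and the libraries in the fit. With neither trend nor robust estimation they were 0 in Raptor KO, 4 in Tsc2 KO, 7 in the interaction, and 0 with rapamycin, with SL0101-01 and between the inhibitors. With robust estimation but no trend they were 0, 4, 5, 0, 0 and 0 in that order, and with a trend but no robust estimation the count with SL0101-01 was 1. These separate settings of trend and robust estimation were chosen after seeing the data. A fit of only the groups compared called 9 genes in Raptor KO and 6 in Tsc2 KO, against 10% and 3.89% of all genes in either direction. In the main fits these shares of all genes were 3.94% and 12.4%. Quantile normalization called 13 genes in Tsc2 KO, against 10.5% of all genes. With neither trend nor robust estimation, 1.62%, 7.02%, 5.39%, 1.59%, 0.822% and 0.119% of all genes were called in the order given above. Leaving out 1 library called 146 to 402 of all genes in Raptor KO and 601 to 2498 in Tsc2 KO. In the interaction it called 897 to 2519. The cause of these shifts was not tested.

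Leaving out 1 library at a time gave 0 to 4 genes in Raptor KO, 5 to 31 in Tsc2 KO, 16 to 31 in the interaction, 11 to 35 with rapamycin, 0 with SL0101-01, 8 to 31 between the inhibitors and 29 to 39 for DMSO against fl/fl progenitors. Where this left a Hoxb8 group with 1 library, that library was assumed to vary like those of the other groups. Removing the progenitor library with Y-linked transcripts from the DMSO comparison was also chosen after seeing the data. Between the fl/fl groups 0 of the 44 genes were called under each alternative, while 0.0302% to 1.36% of all genes were.

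Deviations from the group mean of same-numbered libraries correlated across genes at 0.03, 0.05 and 0.01 in the Raptor line and 0.22, 0.25 and -0.03 in the Tsc2 line. The numbers were not taken as pairs because the labels do not define any, and whether same-numbered libraries share an origin is not known. Each library correlated best with its own number in the Raptor line, and in the Tsc2 line those of replicate 3 did not. With the replicate number as a block the counts were 5 in Raptor KO, 25 in Tsc2 KO, 24 in the interaction, 35 with rapamycin, 2 with SL0101-01 and 33 between the inhibitors. Of all genes, 5.33%, 14.2%, 14%, 15.7%, 15.5% and 14.3% were then called in that order. A planned count test in edgeR was not run, since some recovered values were not whole. With 2 or 3 libraries per group, and genes such as Foxm1 and Cdc25c with low values, small changes were not detectable.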
